A study of Mus musculus with 75 samples.

Results

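RNA of nuclei of D1 neurons, the medium spiny neurons that carry the dopamine D1 receptor, sorted from the mouse nucleus accumbens, was compared here 1 h after a first injection of cocaine and 1 h after saline. Of 75 nuclear RNA libraries, 19 belong to the comparison, chosen by the labels in the headers of the count table: 9 libraries labelled D1_SC and 10 labelled D1_SS. D1_SC mice had saline on 10 days, 30 days in the home cage and then cocaine at 20 mg/kg intraperitoneally, and D1_SS mice had the same saline and withdrawal and then a saline challenge. All of them were male and carried LSL-eGFP::L10a, a Cre-dependent fluorescent tag by which the nuclei were sorted, together with D1-Cre, so that the sort rests on where this Cre acts. The age of the mice, and whether a library held 1 mouse or several, are not given in the sources used here, and p-values then measure the spread between libraries. As a reference for the challenge after a cocaine history, 10 D1_CC and 8 D1_CS libraries of male D1-Cre mice were used. These mice had cocaine at 20 mg/kg on 10 days, 30 days of withdrawal and then cocaine at 20 mg/kg or saline. For the other neuron type, 9 D2_SC and 9 D2_SS libraries were used (D2-Cre mice treated as D1_SC and D1_SS). The check of the D1 label also drew on 10 D2_CC and 10 D2_CS libraries (D2-Cre mice treated as D1_CC and D1_CS).

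Cocaine blocks dopamine reuptake, and the nucleus accumbens is a main target of the dopamine that then accumulates. Medium spiny neurons that carry the D1 receptor, which raises cAMP, respond within minutes through cAMP, protein kinase A and the MAP kinases. Immediate early genes such as Fos and the Nr4a nuclear receptors are switched on first, and feedback genes (phosphodiesterases, MAP kinase inhibitors) and synaptic genes follow.

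The libraries of the cocaine group stood apart from the saline group before any gene was compared. Total counts ran from 651445 to 25320198 with a median of 10318334 in D1_SC, and from 8736018 to 29845486 with a median of 14679711 in D1_SS. A quality rule on depth, detected genes, the ratio of Drd1 to Drd2 and the correlation with other libraries of the line failed D1_SC 1, 4, 5 and 9 and 0 of the D1_SS libraries. D1_SC 4 failed on the correlation alone, D1_SC 1 and 9 on depth and correlation, and D1_SC 5 on all 4 measures. Reads also fell on olfactory and vomeronasal receptor genes, which are silent in brain, and the background share is the part of a library that reads spread over all genes as densely as over these would fill. It was 23.1% ± 17.9 in D1_SC (SD, n = 9) and 45.9% ± 11.8 in D1_SS (n = 10), a difference of -22.7 percentage points (two-sided exact permutation p = 0.00574). Without the 4 failing libraries it was 30.8% ± 19.9 in D1_SC (n = 5), a difference of -15.1 points (exact p = 0.0859). Of the failing libraries, D1_SC 4 (5.65%) and D1_SC 9 (5.96%) had the lowest background shares of the 19 libraries. Leaving out the 4 thus removes libraries of low background as well as shallow ones. Genes over 100 kb, introns included, held 56.1% ± 6.0 of the counts in D1_SC and 51.2% ± 4.26 in D1_SS (exact p = 0.0526), and 54.3% ± 6.76 in D1_SC without the failing libraries (exact p = 0.287). The part that background, depth and long genes play in the gene results was not tested, so the called genes named below are given with their change without the 4 libraries or with the background subtracted. In the lists of genes, a second log2 value in a parenthesis is the change without the 4 libraries.

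**Figure D1:**
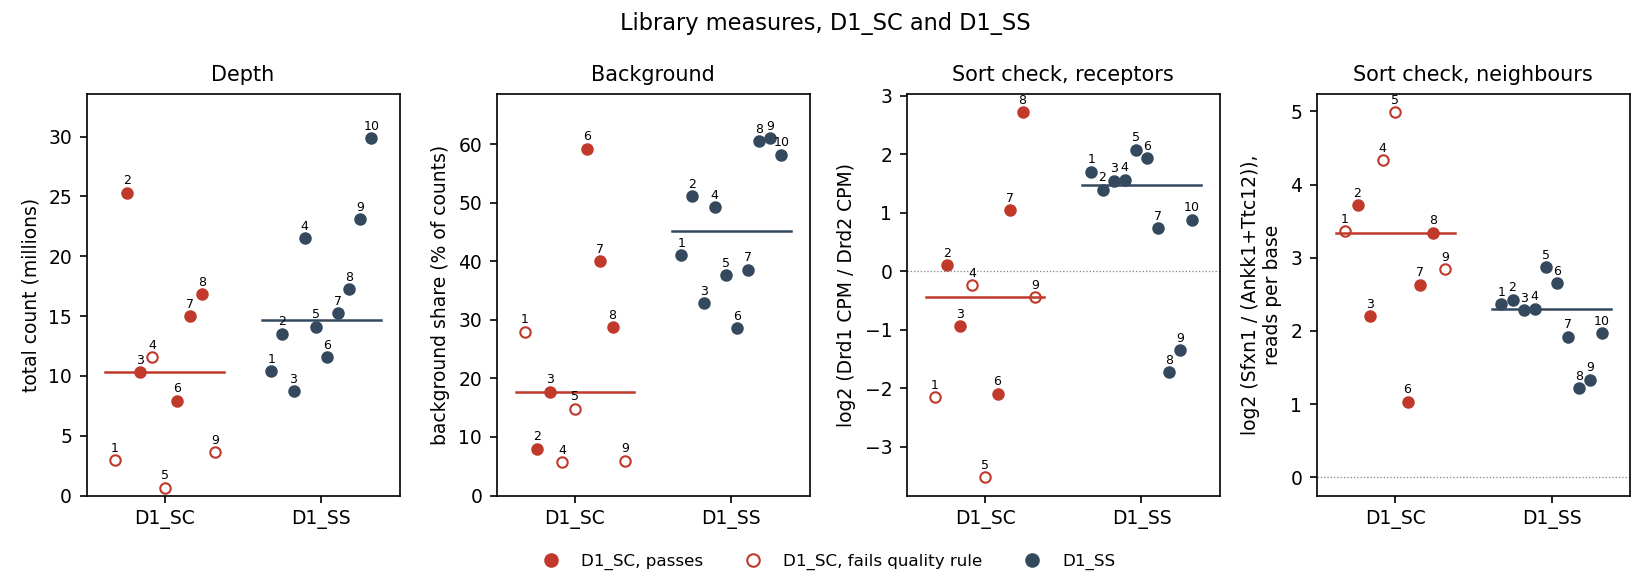
Library measures: total count, background share in percent of counts, log2 ratio of Drd1 to Drd2 CPM, and log2 ratio of the reads per base of Sfxn1, beside Drd1, to those of Ankk1 and Ttc12, beside Drd2. Each point is 1 library with its replicate number, lines are medians, and open points are the 4 failing D1_SC libraries; background share has a median of 17.8% in D1_SC and 45.1% in D1_SS.

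The D1 label was checked on the receptor that defines it and on its neighbours. Drd1 ran from 16.9 to 219 CPM (counts scaled to the library's total) with a median of 61.3 in D1_SC, and from 17.5 to 229 CPM with a median of 136 in D1_SS. Drd2, which marks the other medium spiny neurons, had a median of 84.0 CPM in D1_SC and 53.2 CPM in D1_SS. Drd2 exceeded Drd1 in 6 of 9 D1_SC and 2 of 10 D1_SS libraries, so the receptors alone do not place these libraries with D1 neurons. The reads per base of Sfxn1, beside Drd1, exceeded those of Ankk1 and Ttc12, beside Drd2, in all 19 libraries, with log2 ratios of 1.03 to 4.99 in D1_SC and 1.21 to 2.88 in D1_SS. The same ratio ran from -3.48 to -0.41 in D2_SC and from -1.88 to -0.37 in D2_SS. In the libraries with a history of repeated cocaine it reached 2.0 in D2_CS and 0.74 in D2_CC and went down to -0.45 in D1_CS and -1.93 in D1_CC. In D2_CS the ratio had no finite minimum, and 5 of 10 libraries failed the quality rule. D2_CS 6 and 9 held only 26297 and 19980 counts, so extremes of that group can rest on few reads. D1_SC 6 (1.03) and D1_SS 7, 8, 9 and 10 (1.92, 1.21, 1.33 and 1.97) lie under the highest D2-labelled library, so the ratio does not place every one of the 19 libraries. These neighbours were chosen with values of these data known. Of the 12 D1 marker genes, 1 was higher in D1_SC and 0 were lower (8.33%, near the 9.7% of all genes that were higher). Their median change lay 0.15 above that of all genes. It lay at -0.12 relative to all genes with the background subtracted and at -0.27 with the background share as a covariate. Drd1 itself differed by -0.23 ± 0.52 on the log2 scale (SE; edgeR, adjusted p = 0.79), with groups that overlap. In sorted bulk nuclei, fewer nuclei of a type and less RNA per nucleus cannot be told apart.

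Across the genome the challenge comparison gave many calls, of which 85.6% were rises by edgeR, 59.6% by DESeq2, 61.5% by limma and 70.0% by edgeR with total count scaling. With all 37 D1 libraries in 1 edgeR fit, 3659 genes were higher in D1_SC (9.7% of 37721 tested) and 618 were lower (1.64%), 11.3% in all at an adjusted p under 0.05. Fitted changes are on the scale of TMM, which sets the median of all genes at -0.07 on the log2 scale; by total counts alone that median lies at -0.53 and 267 genes pass. Without the 4 failing libraries 0 genes passed (0% of 38854), with 5436 at an unadjusted p under 0.05. DESeq2 was not run on that set. With the background subtracted from each gene's count, 280 were higher (0.992% of 28229) and 34 lower (0.12%), and with both steps 0 passed, with 1940 at an unadjusted p under 0.05. With the background share as a covariate 2 genes passed, Ntrk2 and Ccn2, a secreted matricellular protein. Leaving out 1 library gave between 459 calls (without D1_SC 2) and 10348 calls (without D1_SC 6). The counts of list members below are from the edgeR fit of all libraries and move in the same way. Without the failing libraries, or with the background share as a covariate, 0 members of any list rose, with the background subtracted at most 3 of a list, and with total count scaling at most 4.

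**Figure D2:**
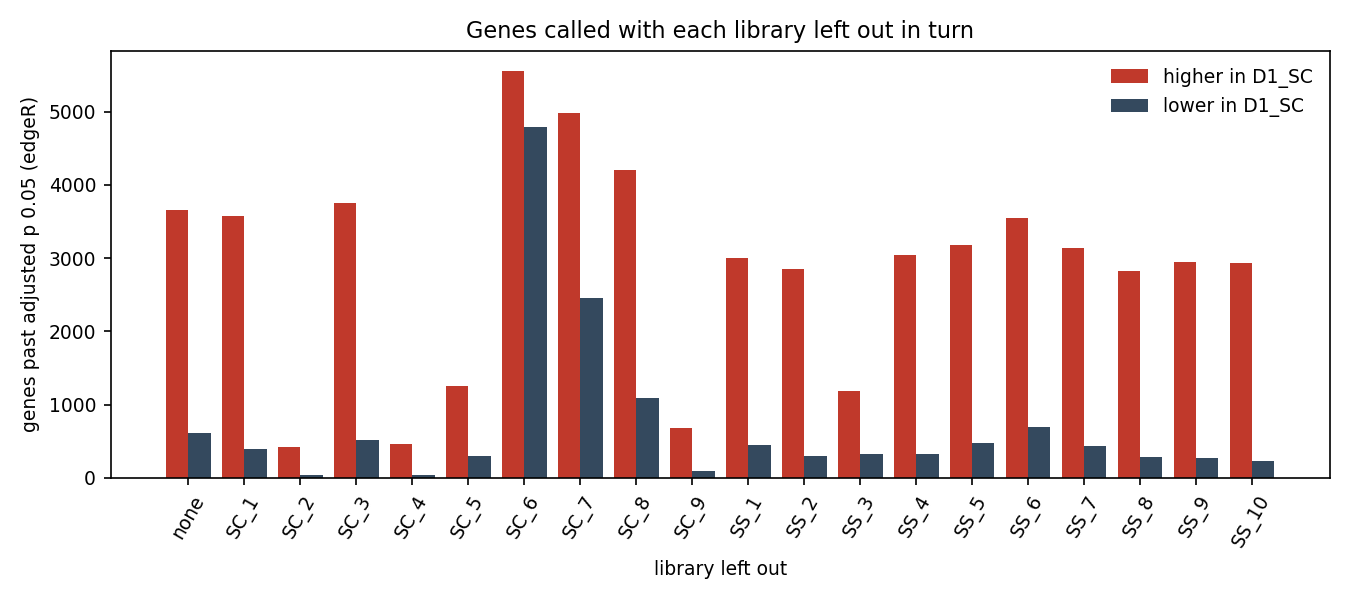
Number of genes past an adjusted p of 0.05 (edgeR, y axis) with all libraries (none) and with the named library left out (x axis), split into genes higher and lower in D1_SC. The count falls to 459 without D1_SC 2, 511 without D1_SC 4 and 777 without D1_SC 9, and is 10348 without D1_SC 6 and 7435 without D1_SC 7.

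Gene length and read density differed between the called genes and the rest. Genes higher in D1_SC had a median length of 36.1 kb, against 9.56 kb over all genes tested, and 27.2% of them were longer than 100 kb, against 7.62% of all. Genes lower in D1_SC had a median length of 5.46 kb. Read density was a median of 7.28 times the background density in the genes that rose, 1.12 times in the genes that fell and 2.36 times over all genes. Each gene's density is a mean over the 19 libraries, D1_SC included, so it is not independent of the direction of the call. Of the genes that fell, 244 of 618 were protein coding (39.5%, against 55.5% of all tested), 161 were pseudogenes and 76 were silent receptor genes. Of the genes that rose, 2465 of 3659 were protein coding (67.4%). In the longest class, over 300 kb, 308 of 612 genes were higher and 1 was lower. Up to 2 kb, 341 of 6873 were higher and 165 lower. By density, 27.0% of genes at 5 to 10 times background were higher, and 27.0% of those over 10 times. List shares below stand beside the 9.7% of all genes, whose median density is 2.36 times background.

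**Figure D3:**
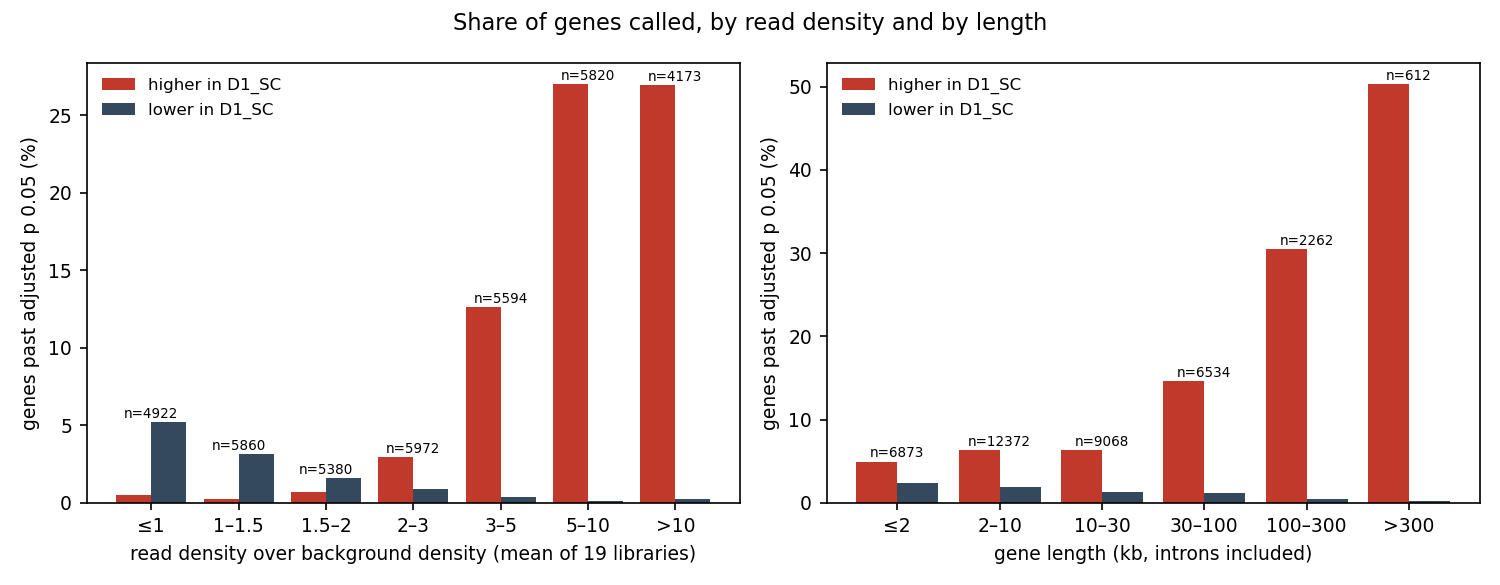
Percent of genes past an adjusted p of 0.05 (y axis) in classes of read density over background density (left) and of gene length in kb (right), with the number of genes in each class. The density is the mean of the 19 libraries, D1_SC included. Genes at or under the background density are higher in 0.528% and lower in 5.2% of cases. Genes over 10 times that density are higher in 27.0%, and genes over 300 kb in 50.3%.

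The rapid immediate early genes are the known first answer of D1 neurons to dopamine, and 3 of 28 were higher in D1_SC and 0 lower (10.7%, near the 9.7% of all genes). They were Nr4a3, Nr4a1 and Fosl2. The list's median lay 0.54 above that of all genes on the log2 scale, 0.80 above it without the failing libraries and 0.90 above it with the background subtracted as well, where 26 of 26 members had positive values and 0 passed. With the background share as a covariate it lay 0.20 above it, and 19 of 28 members lay above the median of all genes. Relative to all genes, the medians of 31 of 32 lists keep their sign with RLE and with total count scaling; choroid plexus markers do not.

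Nr4a3 encodes an orphan nuclear receptor (ENSMUSG00000028341.9, mm10 chromosome 4, 48045153 to 48086447, plus strand). It ran from 4.61 to 121 CPM with a median of 71.1 in D1_SC, and from 25.7 to 49.3 CPM with a median of 34.5 in D1_SS. D1_SC 5, the shallowest library, was the lowest, 6 of 9 D1_SC libraries lay above every D1_SS library and 8 of 9 above the D1_SS median. Its log2 change was 1.55 ± 0.36 (edgeR, adjusted p = 0.00577), a fold of 2.92. It was 1.39 ± 0.29 without the failing libraries (adjusted p = 0.189), 1.42 with the background subtracted (adjusted p = 0.0476) and 1.53 with both. Each of the 5 D1_SC libraries that pass the quality rule lay above the D1_SS median. The call held in 17 of 19 fits that left out 1 library.

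Nr4a1, of the same receptor family (chromosome 15, 101254269 to 101274795), had 22.2 to 101 CPM with a median of 48.3 in D1_SC and 13.9 to 47.5 CPM with a median of 28.8 in D1_SS. Its change was 1.36 ± 0.37 (adjusted p = 0.0149), and 1.06 ± 0.37 without the failing libraries (adjusted p = 0.282). The groups overlap, with 5 of 9 D1_SC libraries above every D1_SS library and the other 4 within their range. Fosl2, an AP-1 transcription factor subunit (chromosome 5, 32135801 to 32157842), had 10.7 to 60.3 CPM with a median of 34.5 in D1_SC and 16.6 to 31.9 CPM with a median of 22.7 in D1_SS. It changed by 1.17 ± 0.30 (adjusted p = 0.00972), and by 1.04 ± 0.27 without the failing libraries (adjusted p = 0.231).

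Promoter sequences, from RefSeq (GRCm38.p6, of which mm10 is the browser name), are shown for these 3 genes and for Fos because cAMP acts on such genes through CREB, which binds the cAMP response element. The 250 bases before the gene start in the RefSeq table are given, with each core of that element in capitals (TGACG, or CGTCA on the other strand).
Nr4a3: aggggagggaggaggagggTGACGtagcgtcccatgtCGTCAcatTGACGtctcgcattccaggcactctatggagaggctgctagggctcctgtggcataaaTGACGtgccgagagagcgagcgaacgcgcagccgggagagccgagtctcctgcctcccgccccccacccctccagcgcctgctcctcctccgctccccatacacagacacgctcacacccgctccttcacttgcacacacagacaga
Nr4a1: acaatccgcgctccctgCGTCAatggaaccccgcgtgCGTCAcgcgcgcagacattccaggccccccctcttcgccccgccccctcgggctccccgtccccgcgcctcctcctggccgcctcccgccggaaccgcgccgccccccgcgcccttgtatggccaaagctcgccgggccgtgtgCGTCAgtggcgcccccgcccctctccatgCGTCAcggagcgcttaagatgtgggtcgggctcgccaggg
Fosl2: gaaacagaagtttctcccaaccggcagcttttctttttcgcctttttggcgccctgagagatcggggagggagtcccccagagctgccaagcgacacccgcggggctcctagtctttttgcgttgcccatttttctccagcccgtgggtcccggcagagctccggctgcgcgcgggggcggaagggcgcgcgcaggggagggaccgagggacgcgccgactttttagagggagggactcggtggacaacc
Fos: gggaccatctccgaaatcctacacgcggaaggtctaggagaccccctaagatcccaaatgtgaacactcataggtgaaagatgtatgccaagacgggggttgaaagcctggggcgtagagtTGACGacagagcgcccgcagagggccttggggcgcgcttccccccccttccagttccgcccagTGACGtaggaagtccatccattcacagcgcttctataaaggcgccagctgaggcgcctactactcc
They lie at chr4:48045055-48045304, chr15:101266596-101266845, chr5:32136222-32136471 and chr12:85473640-85473889, all on the plus strand. The RefSeq start lies downstream of the gene start in the annotation behind the count table by 12577 bases in Nr4a1, 671 in Fosl2 and 152 in Nr4a3. The Nr4a1 and Fosl2 windows thus lie inside the annotated genes, and other starts of these genes were not searched. The Nr4a3 and Nr4a1 windows hold 4 cores each, Fos 2 and Fosl2 0. Nr4a2 holds 4, Npas4 2, and Fosb and Junb 1 each. Of 32851 promoter windows of this length, 17.8% hold at least 1 core and 0.688% hold 3 or more. The match describes letters only, and the Nr4a2 window with 4 cores belongs to a gene that did not pass in edgeR (0.42 ± 0.32, adjusted p = 0.367) and passed in limma (0.83, adjusted p = 0.0164). Of 10 genes looked up, 8 were in the table.

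The best-known members of the list did not pass in edgeR or DESeq2, and limma called some of them. Fos, the classic marker of activated neurons, had 0 to 20.2 CPM with a median of 3.16 in D1_SC and 2.03 to 8.93 CPM with a median of 4.78 in D1_SS, a fitted change of 0.46 ± 0.44 (adjusted p = 0.475; 0.92 without the failing libraries). Arc, a synaptic regulator whose mRNA travels to active dendrites, had 0 to 75.2 CPM with a median of 8.14 in D1_SC and 3.07 to 26.7 CPM with a median of 15.1 in D1_SS (0.61 ± 0.47, adjusted p = 0.368; 1.10). In both genes D1_SC 7 was the highest of all 19 libraries, and the D1_SC median lay below that of D1_SS. Without D1_SC 7 alone the change was 0.039 for Fos (edgeR, adjusted p = 0.959) and 0.092 for Arc (adjusted p = 0.904). D1_SC 7 passes the quality rule, so it stays in the values without the failing libraries. For Npas4, a transcription factor that answers to calcium, 1.54 to 31.0 CPM with a median of 9.72 were found in D1_SC and 9.30 to 25.0 CPM with a median of 17.8 in D1_SS. Its change of 0.11 ± 0.34 (adjusted p = 0.852) was -0.06 with RLE scaling, -0.32 with total count scaling and 0.36 without the failing libraries. The AP-1 subunits Fosb (0.80 ± 0.41, adjusted p = 0.169; 1.17) and Junb (0.36 ± 0.57, adjusted p = 0.681; 0.79) and the zinc finger factors Egr1 (0.74 ± 0.50, adjusted p = 0.302; 0.81) and Egr3 (1.30 ± 0.52, adjusted p = 0.0857; 0.86) gave values above the median of all genes. limma called Fosb (1.24, adjusted p = 0.00948), Arc (1.31, adjusted p = 0.0448) and Egr3 (1.18, adjusted p = 0.0433), and did not call Fos (0.85, adjusted p = 0.0779), Egr1, Junb or Npas4. Egr3 also passed in the edgeR fit of D1_SC and D1_SS alone (1.36, adjusted p = 0.0389).

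The libraries of highest Drd1 in D1_SC and of lowest Drd1 in D1_SS were also at the extremes for Arc and Npas4. Only these 2 genes are compared here, and the relation over all 19 libraries was not tested. D1_SC 7 and 8, with 131 and 219 CPM of Drd1 the highest of their group, were the 2 highest D1_SC libraries for Arc (75.2 and 35.6 CPM) and Npas4 (31.0 and 25.6 CPM). D1_SS 8 and 9, with 17.5 and 22.3 CPM of Drd1 the lowest of their group, were the 2 lowest D1_SS libraries for Npas4 (10.9 and 9.30 CPM) and Arc (5.39 and 3.07 CPM). These 2 libraries also had the highest background shares of D1_SS (60.5% and 61.0%). Summed over the 28 rapid genes, D1_SC libraries held 141 to 816 CPM with a median of 328 and D1_SS libraries 167 to 471 CPM with a median of 314. With the background taken off, the sums were 131 to 1226 CPM with a median of 378 in D1_SC, and 113 to 634 CPM with a median of 391 in D1_SS. The group medians of this sum thus lie close together, and the spread in D1_SC covers the D1_SS range on the upper side; the part of Drd1 in this was not tested.

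**Figure D4:**
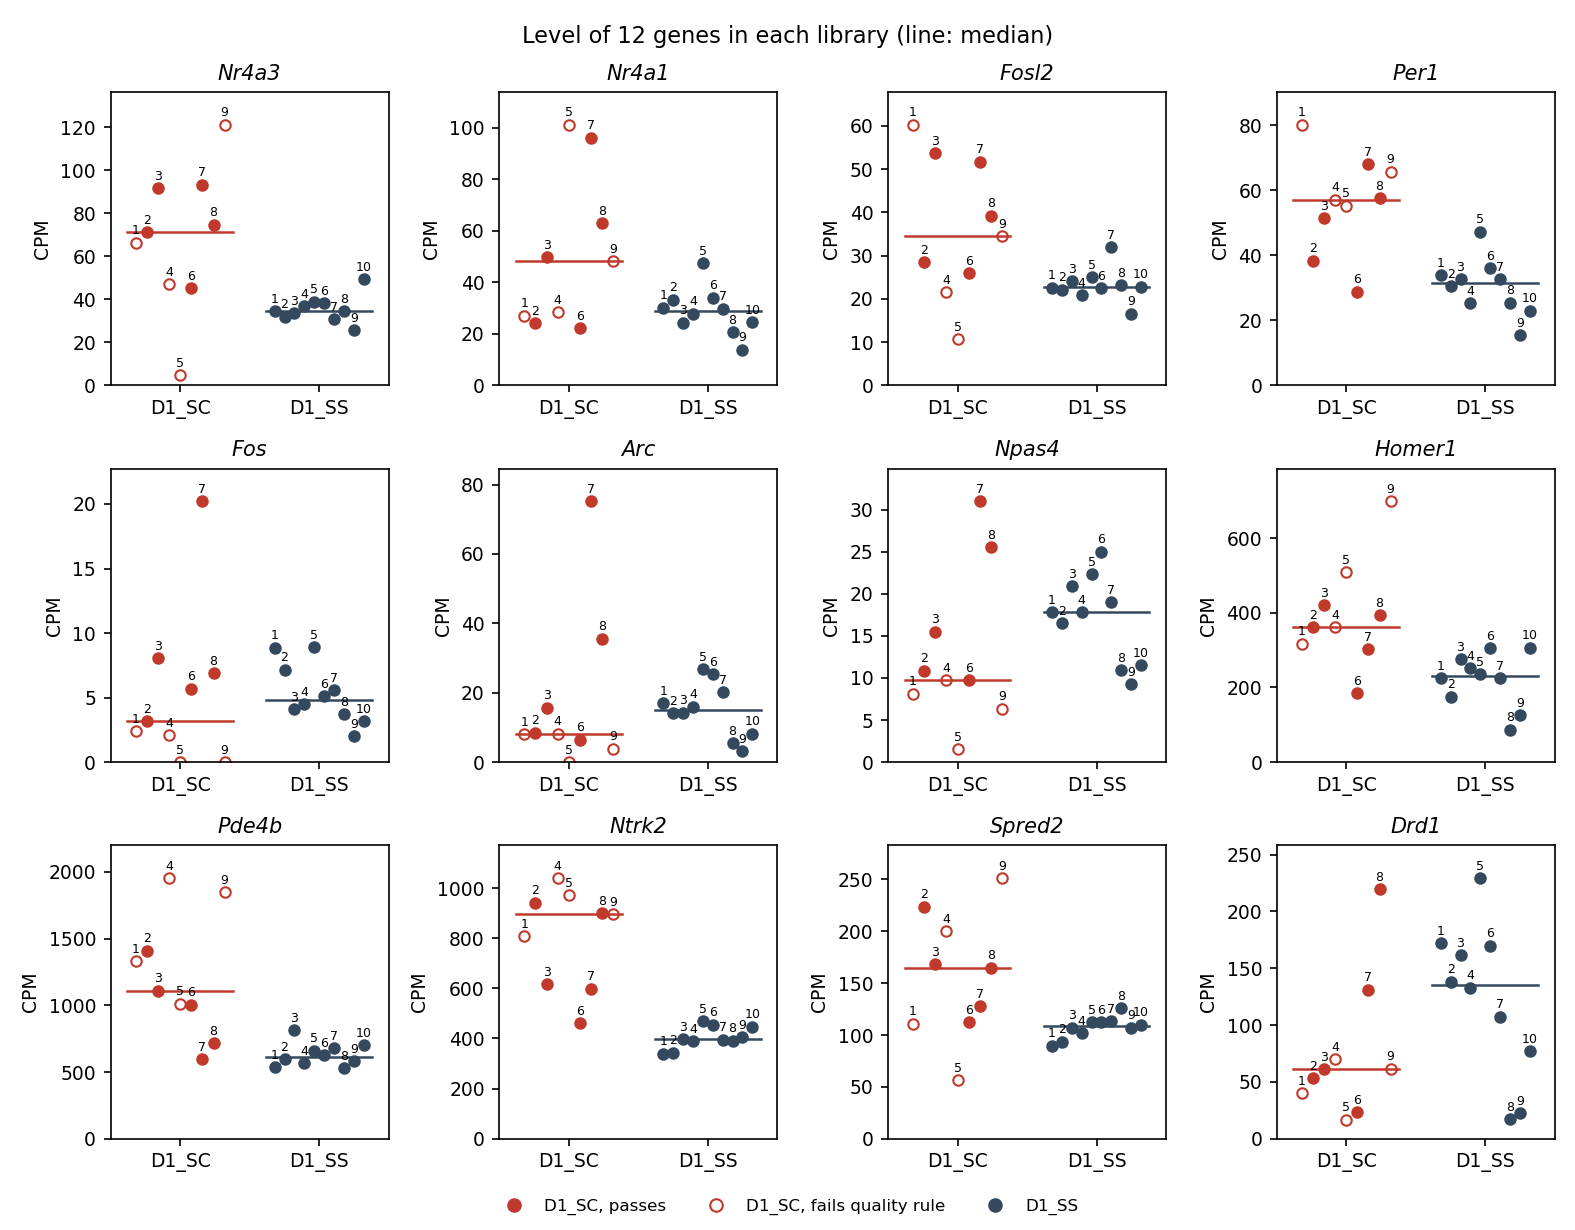
CPM (y axis, from 0) of 12 genes in each D1_SC and D1_SS library; points carry replicate numbers, lines are medians and open points are the 4 failing D1_SC libraries. Ntrk2 lies above every D1_SS library in 8 of 9 D1_SC libraries and Nr4a3 in 6, while Fos, Arc and Npas4 are highest in D1_SC 7 and their D1_SC medians lie below the D1_SS medians.

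Delayed activity-regulated genes gave 3 rises in 28 members and 0 falls (10.7%, near the 9.7% of all genes), with a median 0.29 above that of all genes, 0.46 above it without the failing libraries and -0.022 from it with the background share as a covariate. Homer1, a scaffold that links glutamate receptors to calcium stores, had 184 to 699 CPM with a median of 362 in D1_SC and 86.6 to 307 CPM with a median of 230 in D1_SS. It rose by 1.49 ± 0.38 (adjusted p = 0.00913; 0.90 without the failing libraries), and 7 of 9 D1_SC libraries lay above every D1_SS library. Plk3, a stress-responsive kinase (1.15 ± 0.27, adjusted p = 0.00644; 0.81), and Inhba, an activin subunit (1.13 ± 0.36, adjusted p = 0.0346; 0.89), were the other rises. MAP kinase feedback regulators had 4 rises in 17 (23.5%) and 0 falls, none of them a phosphatase: Spred1 (1.27 ± 0.39; 0.87), Spred2 and Spred3 (0.87 ± 0.26; 0.80), which restrain Ras signalling, and Errfi1 (0.95 ± 0.32; 0.19), which restrains the EGF receptor. Spred2 ran from 56.8 to 251 CPM with a median of 165 in D1_SC and from 89.8 to 126 CPM with a median of 109 in D1_SS (1.24 ± 0.28, adjusted p = 0.0048; 0.95 without the failing libraries). The phosphatase Dusp1 differed by 0.08 ± 0.19 (adjusted p = 0.801), and by -0.08 with RLE scaling and -0.36 with total count scaling.

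Clock genes, of which some also answer to CREB, had 7 rises in 22 (31.8%) and 0 falls, with a median 0.64 above that of all genes, 0.55 above it without the failing libraries and 0.062 above it with the background share as a covariate, where 11 of 22 members lay above the median of all genes. Per1, a repressor of the clock and a CREB target, had 28.8 to 80.3 CPM with a median of 57.2 in D1_SC and 15.5 to 47.3 CPM with a median of 31.6 in D1_SS. All D1_SC libraries but D1_SC 6 lay above the D1_SS median, and 7 of 9 lay above every D1_SS library. Per1 changed by 1.48 ± 0.38 (adjusted p = 0.011), by 0.96 without the failing libraries and by 0.99 with the background subtracted (adjusted p = 0.041). Npas2, a partner of the clock activator Bmal1 that is rich in forebrain, had 240 to 682 CPM with a median of 350 in D1_SC and 202 to 291 CPM with a median of 230 in D1_SS, and all 9 D1_SC libraries lay above the D1_SS median. It changed by 1.55 ± 0.33 (adjusted p = 0.00403), by 0.87 without the failing libraries and by 0.97 with the background subtracted (adjusted p = 0.0375). Per2 (1.13 ± 0.28), Per3 (1.14 ± 0.28) and Rora (1.18 ± 0.28), a nuclear receptor of the clock's second loop, also passed, and gave 0.95, 0.69 and 0.70 without the failing libraries. The clock repressors Nr1d2 (1.10 ± 0.32; 0.53) and Bhlhe41 (1.41 ± 0.44; 1.00) were the other rises.

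cAMP pathway genes had 17 rises in 35 (48.6%) and 0 falls, with a median 0.82 above that of all genes, 0.50 above it without the failing libraries and 0.31 with the background subtracted as well. With the background share as a covariate it lay 0.056 above it. The 17 rises fell to 3 with the background subtracted and to 3 with total count scaling, and ran from 4 to 22 with 1 library left out. Phosphodiesterases, which end the cAMP signal, were among them. Pde4b (chromosome 4, 102087543 to 102607259) had 598 to 1955 CPM with a median of 1110 in D1_SC and 528 to 813 CPM with a median of 611 in D1_SS. In D1_SC the libraries with the lowest level, D1_SC 7 and 8, were those with the highest Drd1. Pde4b changed by 1.67 ± 0.31 (adjusted p = 0.00293) and was called in all 19 fits that left out 1 library; the change was 0.98 ± 0.31 without the failing libraries (adjusted p = 0.263) and 1.22 with the background subtracted (adjusted p = 0.0276). Pde4a (1.35 ± 0.26; 0.94 without the failing libraries), Pde7b (1.53 ± 0.31; 1.03) and Pde10a (1.35 ± 0.39; 0.84), the striatal enzyme, passed too. Drd3, a dopamine receptor that lowers cAMP, had 56.6 to 150 CPM in D1_SC and 52.4 to 79.6 CPM in D1_SS, and rose by 1.39 ± 0.27 (adjusted p = 0.003; 0.70). Drd2, which lowers cAMP as well, rose by 1.56 ± 0.49 (adjusted p = 0.0332; 0.69), a call that held in 9 of 19 fits with 1 library left out.

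Of the kinases and phosphatases that carry such signals to the nucleus, together with MEF2 factors, 10 of 28 were higher (35.7%) and 0 lower. Among them were the salt-inducible kinases Sik2 (1.12 ± 0.25; 0.86 without the failing libraries) and Sik3 (1.34 ± 0.29; 0.97), which hold back the CREB coactivators, and Camk4 (1.55 ± 0.35; 0.97), a nuclear calcium-dependent kinase that phosphorylates CREB. Sik1, itself a CREB target, did not pass in edgeR (0.45 ± 0.31, adjusted p = 0.302) and passed in limma (0.67, adjusted p = 0.0409). The glucocorticoid and stress list had 7 rises in 18 (38.9%) and 0 falls, including the mineralocorticoid receptor gene Nr3c2 (1.12 ± 0.23; 0.56) and the kinase gene Sgk1 (1.17 ± 0.29; 0.72). In the heat shock list 2 of 20 were higher (10%, near the 9.7% of all genes), the chaperone gene Dnajb5 (1.43 ± 0.39, adjusted p = 0.0139; 1.13) and Hsf1, the heat shock factor (1.00 ± 0.27, adjusted p = 0.0146; 0.58).

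Ntrk2 was called by edgeR, DESeq2 and limma, with each scaling and with the background subtracted or as a covariate, but not without the failing libraries. It encodes TrkB, the receptor of brain-derived neurotrophic factor (ENSMUSG00000055254.15, chromosome 13, 58806569 to 59133970, plus strand). It had 462 to 1040 CPM with a median of 895 in D1_SC and 339 to 469 CPM with a median of 396 in D1_SS. D1_SC 6 lay within the D1_SS range, and the other 8 lay above it. The log2 change was 1.68 ± 0.29 (edgeR, adjusted p = 0.00293), a fold of 3.21 by TMM and 1.99 by total counts (adjusted p = 0.000554). It was 1.22 with the background subtracted (adjusted p = 0.00287), 0.85 with the background share as a covariate (adjusted p = 0.0189) and 1.18 ± 0.30 without the failing libraries (adjusted p = 0.228). Astrocytes also express Ntrk2, and astrocyte markers are given below.

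The other rises of smallest p were of several kinds. Clvs1, a neuronal protein of clathrin-coated vesicles, changed by 1.81 ± 0.29, with 190 to 792 CPM in D1_SC and 155 to 266 CPM in D1_SS. Unc5c, a netrin receptor, changed by 1.15 ± 0.20, Igf1r, the receptor of insulin-like growth factor, by 0.95 ± 0.17, and Oxr1, which protects against oxidative damage, by 1.00 ± 0.18. Elovl5, an elongase of polyunsaturated fatty acids, changed by 1.22 ± 0.22, Map4k4, a stress kinase, by 1.30 ± 0.23, Pxk by 1.11 ± 0.20 and Mthfsl by 1.44 ± 0.25. Each of these 8 had an adjusted p of 0.00293 and was called in all 19 fits that left out 1 library. They were chosen for a small p and for at least 8 of 9 D1_SC libraries above the D1_SS median. Neither trait is therefore separate support for their rise. Without the failing libraries their changes were 0.52 (Oxr1) to 0.83 (Clvs1). Mbd6, a member of the methyl-CpG-binding domain family, changed by 2.44 ± 0.44 (adjusted p = 0.00293; 1.03 without the failing libraries), with 130 CPM in D1_SC 1 and 36.8 CPM in the next library. With the background subtracted, Wipf3, Phlpp1, Daam1, Pik3c2b and Slc1a2 also passed at an adjusted p of 0.0236, with changes there of 1.14, 1.16, 1.29, 1.06 and 1.54.

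In lists of synaptic and channel genes between 33.3% and 65.4% of members were higher, against 9.7% of all genes. Among all genes at 5 to 10 times the background density 27.0% were higher, and over 10 times it 27.0%. The genes of these lists are long, with median spans from 59.7 kb (potassium channels) to 319 kb (glutamate receptors), against 9.56 kb over all genes. The part of length and of read density in these shares was not tested. Of the postsynaptic scaffold genes 17 of 26 were higher (65.4%) and 0 lower, and their median lay 1.18 above that of all genes, 0.79 without the failing libraries, 0.51 with the background subtracted as well and 0.43 with the background share as a covariate. The 17 rises were 3 with the background subtracted, 4 with total count scaling and 2 to 19 with 1 library left out. Dlg2, which encodes PSD-93 and spans 1973 kb, had 2428 to 10372 CPM with a median of 6294 in D1_SC and 2447 to 4368 CPM with a median of 3440 in D1_SS. It changed by 1.65 ± 0.34 (adjusted p = 0.00322; 0.99 without the failing libraries); Dlg1, which encodes SAP97, changed by 1.55 ± 0.29 (0.79), and Shank3, a master scaffold of the density, by 1.38 ± 0.30 (0.92). Glutamate receptors had 13 rises in 25 (52%) and 0 falls. The AMPA subunit gene Gria1 (1.63 ± 0.37; 1.09) and the metabotropic genes Grm5 (1.57 ± 0.37; 0.92) and Grm7 (1.65 ± 0.33; 1.01) were among them. GABA receptor subunits had 5 rises in 15 (33.3%), and vesicle fusion genes 12 in 28 (42.9%), with the active zone scaffold Pclo at 1.44 ± 0.31 (0.69). Potassium channel genes had 20 rises in 51 (39.2%), and sodium and calcium channel genes 13 in 26 (50%), with the calcium channel subunit gene Cacnb2 at 1.69 ± 0.34 (1.15); none of these lists held a fall.

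Some of these values were smaller without D1_SC 5. Stx1a, a syntaxin of the release machinery, had 539 CPM in D1_SC 5 and 50.8 CPM in the next D1_SC library, and its change of 2.58 ± 0.50 (adjusted p = 0.00306) was 0.61 without D1_SC 5 alone (adjusted p = 0.0924) and 0.58 ± 0.22 without the 4 failing libraries. Dlgap4, another scaffold gene, had 563 CPM in D1_SC 5 and 268 CPM in the next library (1.39 ± 0.31; 0.75), and its change without D1_SC 5 alone was 0.88 (adjusted p = 0.0503). D1_SC 5 holds 651445 counts, the fewest of the 19 libraries, and the cause of its high values in these genes was not tested.

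Genes of chromatin also rose in number. DNA methylation and histone modifying enzymes had 30 rises in 54 (55.6%) and 0 falls, with a median 0.97 above that of all genes, 0.49 above it without the failing libraries and 0.22 above it with the background share as a covariate. The 30 rises were 3 with the background subtracted, 2 with total count scaling and 3 to 39 with 1 library left out. Kmt2d, a histone H3 lysine methyltransferase gene, had 77.5 to 214 CPM with a median of 117 in D1_SC and 46.3 to 102 CPM with a median of 61.7 in D1_SS, and changed by 1.66 ± 0.32 (adjusted p = 0.00293; 1.03). Mbd2, which reads methylated DNA (1.37 ± 0.29; 0.69), and Kat6b, an acetyltransferase (1.13 ± 0.26; 0.59), also passed. Of 14 long noncoding RNAs retained in nuclei, 9 were higher (64.3%) and 0 lower. Meg3, an imprinted noncoding RNA, had 1484 to 6843 CPM with a median of 2987 in D1_SC and 435 to 2273 CPM with a median of 1220 in D1_SS (2.06 ± 0.45, adjusted p = 0.00457; 1.02 without the failing libraries). Snhg14, the host transcript of the imprinted small nucleolar RNAs (1.59 ± 0.33; 0.71), overlaps Ube3a on the other strand, and whether reads were counted by strand is not stated in these sources.

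Of identity genes of medium spiny neurons 10 of 15 were higher (66.7%) and 0 lower. Foxp1 (1.08 ± 0.26; 0.68 without the failing libraries) and Meis2 (1.35 ± 0.33; 0.86) are transcription factors of striatal neurons, and Ppp1r16b (1.08 ± 0.26; 0.63) encodes a phosphatase regulator. The summed level of the 15 markers was 4181 to 10562 CPM in D1_SC and 3546 to 6659 CPM in D1_SS. That sum had a median of 6709 CPM in D1_SC and 5235 CPM in D1_SS. With the background taken off, the order turned, with medians of 7821 CPM in D1_SC and 8338 CPM in D1_SS. The 10 rises were 0 with the background subtracted, 0 with total count scaling and 0 to 11 with 1 library left out. With the background share as a covariate the list's median lay 0.058 above that of all genes. D2 markers had 2 rises in 9 (22.2%), Drd2 and the kainate receptor gene Grik3 (0.67 ± 0.21; 0.33), with summed levels of 497 to 1093 CPM in D1_SC and 719 to 1343 CPM in D1_SS.

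Markers of other cells were present in both groups, and some rose. Of 14 astrocyte markers 4 were higher (28.6%) and 0 lower, with summed levels of 132 to 1127 CPM in D1_SC and 268 to 500 CPM in D1_SS. Slc1a2, the main glutamate transporter of astrocytes, had 62.8 to 495 CPM with a median of 260 in D1_SC and 91.7 to 223 CPM with a median of 105 in D1_SS (1.54 ± 0.29, adjusted p = 0.00293; 0.85 without the failing libraries). D1_SC 1 was the highest and D1_SC 2 the lowest of all 19 libraries. Hepacam, an astrocyte adhesion gene, had 669 CPM in D1_SC 5 and 43.0 CPM in the next library, and its change of 3.29 ± 0.65 (adjusted p = 0.00322) was 0.06 without the failing libraries. Sox9, a transcription factor of astrocytes (1.90 ± 0.43; 0.61), rose too. Aqp4, which defines astrocytes, was at 0 in 2 D1_SC libraries, as were Cldn5 of endothelium in 2, Neurod6 of cortex in 3 and Foxj1 of ependyma in 3, while none of these was at 0 in a D1_SS library.

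Of 14 oligodendrocyte markers 6 were higher (42.9%) and 0 lower, with summed levels of 142 to 1008 CPM in D1_SC and 216 to 364 CPM in D1_SS. The myelin genes Mobp (1.69 ± 0.41; 0.47 without the failing libraries) and Mbp (0.84 ± 0.19; 0.41) were among them. Of 12 microglia markers 1 was higher (8.33%, near the 9.7% of all genes), P2ry12, a purine receptor (0.94 ± 0.25; 0.64). Their summed levels were 76.8 to 224 CPM in D1_SC and 170 to 217 CPM in D1_SS. Of 10 markers of cortical glutamatergic neurons 2 were higher (20%), with sums of 142 to 574 CPM in D1_SC and 258 to 438 CPM in D1_SS. One was Neurod2, a transcription factor (1.59 ± 0.41; 1.60), and the other Slc17a7: this vesicular glutamate transporter of cortex had 129 CPM in D1_SC 7, 36.7 CPM in the next library and 0 in D1_SC 5 and 9 (1.57 ± 0.52, adjusted p = 0.0412; 2.13). Markers of endothelial and mural cells (12) and of striatal interneurons (13) had 0 calls in the edgeR fit, and DESeq2 called 0 of the first and 1 of the second, Calb2 (-0.70 ± 0.26, adjusted p = 0.0466). Rgs5, of pericytes, had the smallest p of the first list (-0.48 ± 0.26, adjusted p = 0.194) and Nos1 of the second (0.87 ± 0.30, adjusted p = 0.0535), at 476 CPM in D1_SC 5 and 153 CPM in the next library. Choroid plexus and ependymal markers gave 1 rise and 1 fall in 11 (18.2%, against 11.3% of all genes called in either direction). The rise was the potassium channel gene Kcnj13 (1.72 ± 0.47; 0.53). The fall was Ttr, the transthyretin gene of the choroid plexus (-2.06 ± 0.68, adjusted p = 0.0407; -2.93). It had 88.0 and 67.0 CPM in D1_SS 6 and 4 and 6.26 CPM or less in the other D1_SS libraries. The part of these cells in the rises of Ntrk2 and the other genes was not tested.

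Ribosomal, respiratory and mitochondrial genes had 1 rise between them. Of 84 cytosolic ribosomal protein genes 0 were higher and 1 was lower (Rpl10l, a retrogene copy, -1.35 ± 0.41; -1.09), with a median at -0.49 relative to that of all genes, -0.19 without the failing libraries and -0.92 with the background share as a covariate. Of 81 nuclear-encoded respiratory chain genes 1 was higher (Atp5o, 0.84 ± 0.22; 0.54) and 0 lower, with a median at -0.12 relative to that of all genes and -0.73 with the background share as a covariate. The 11 tested genes of the mitochondrial genome all had values below 0 and 0 passed; mt-Co3, a subunit of complex IV, had the smallest p (-1.67 ± 0.83, adjusted p = 0.158). Counts of ribosomal protein genes can be split with near-identical pseudogenes and are uncertain.

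The falls of smallest p lay near background. Brca1, a DNA repair gene, had 0 to 35.6 CPM with a median of 8.47 in D1_SC and 21.6 to 40.7 CPM with a median of 36.4 in D1_SS, and its density in D1_SS was a median of 1.53 times the background density. It changed by -0.91 ± 0.27 (adjusted p = 0.0211; -0.49 without the failing libraries). Slc17a8, the vesicular glutamate transporter VGLUT3, changed by -0.72 ± 0.21 (adjusted p = 0.0218; -0.42) at 1.98 times background. The other 7 named falls, Cd300c, Cfap70, Psg16, Slfn8, Rslcan18, Plac8 and Rdh16f1, had changes from -1.10 (Slfn8) to -0.84 (Rdh16f1) at 1.01 (Rdh16f1) to 2.20 (Cd300c) times background in D1_SS. Without the failing libraries these 7 lay between -0.73 (Cd300c) and -0.53 (Plac8). With the background subtracted, Cfap70 was the 1 of these 9 that passed (-1.98, adjusted p = 0.0366). Among 1314 tested silent receptor genes, which report background alone, 6 were higher and 76 lower, with a median at -0.68 relative to that of all genes and -0.10 with the background share as a covariate. The background share is computed from the silent receptor genes, so these values restate its difference between the groups.

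**Figure D5:**
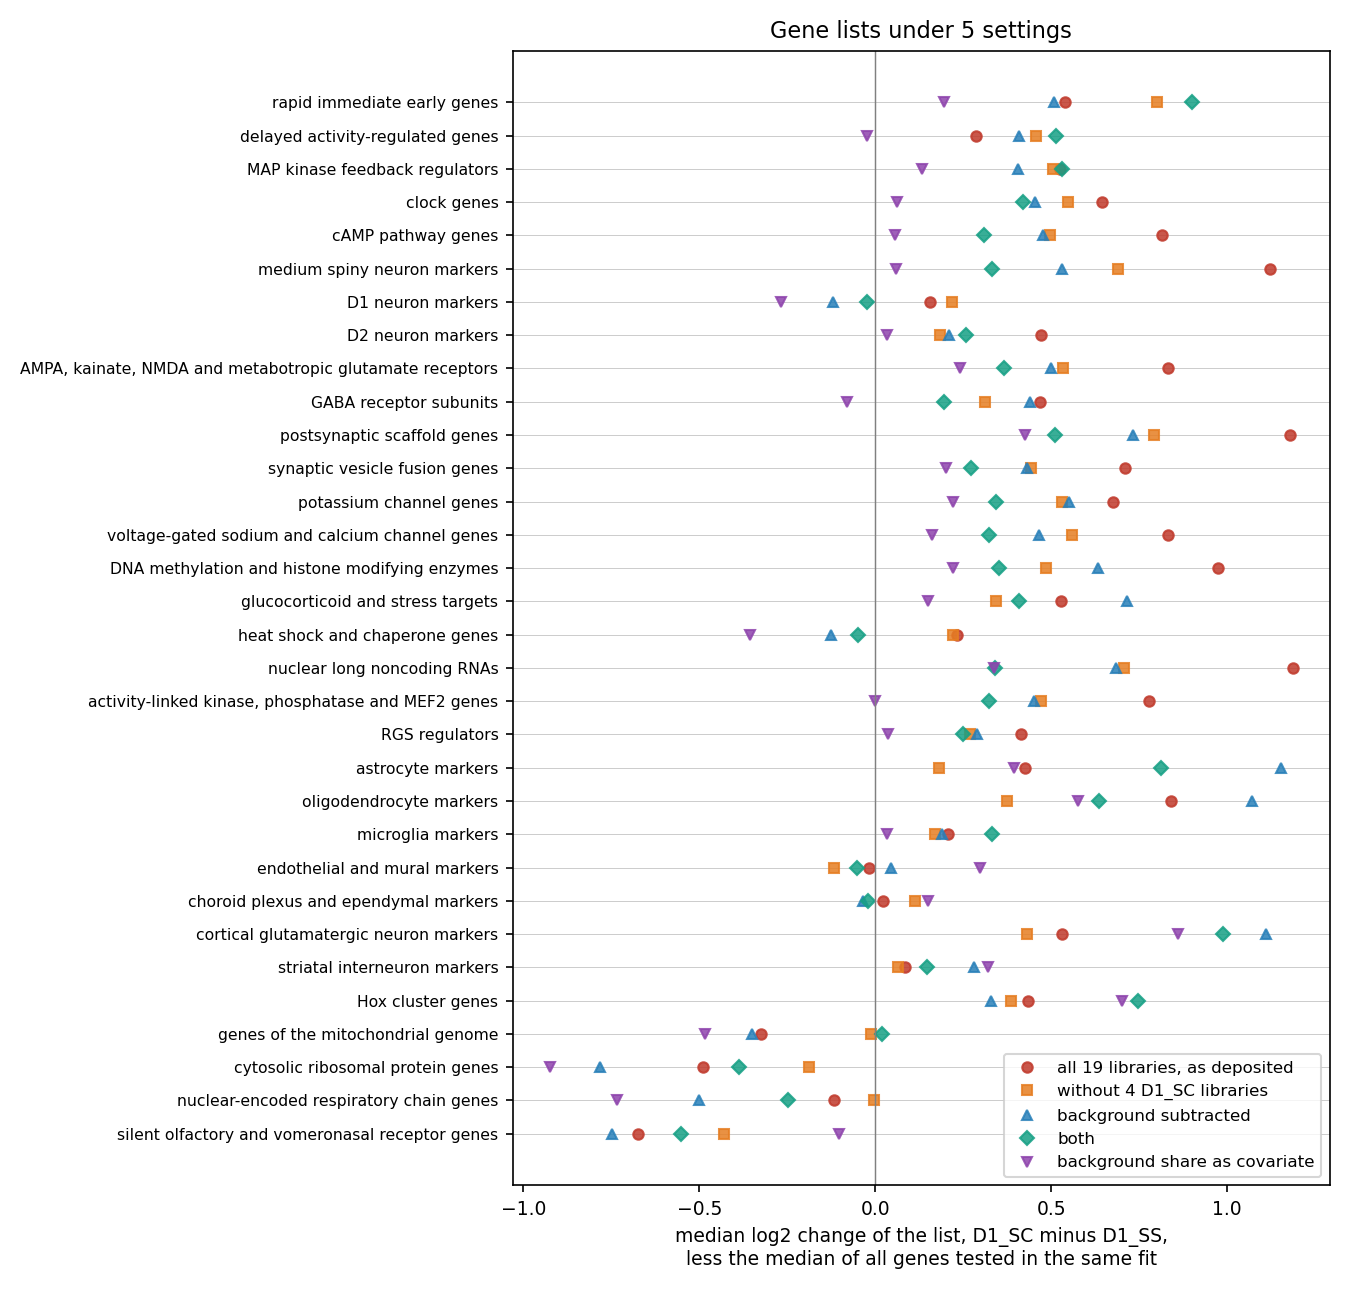
Median log2 change of each gene list, D1_SC minus D1_SS, less the median of all genes in the same fit (x axis), with the deposited counts of all libraries, without the 4 failing D1_SC libraries, with the background subtracted, with both, and with the background share as a covariate. Rapid immediate early genes lie at 0.54, 0.80, 0.51, 0.90 and 0.20 in that order, while scaffold genes lie at 1.18, 0.79, 0.73, 0.51 and 0.43; delayed activity-regulated genes, GABA receptor subunits, kinase, phosphatase and MEF2 genes, D1 markers, heat shock genes, mitochondrial genes and endothelial and choroid plexus markers change sign between settings.

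The same challenge after repeated cocaine gave another set of values, from libraries that share no sample with D1_SC and D1_SS. In D1_CC against D1_CS, 3123 genes were higher (8.28% of 37721). Rapid immediate early genes had 3 rises in 28 in D1_SC against D1_SS, with a median 0.54 above that of all genes, and 12 rises in D1_CC against D1_CS, with a median 1.00 above it. Ribosomal protein genes had 0 rises in D1_SC against D1_SS and 62 in D1_CC against D1_CS, and heat shock genes 2 and 13 in the same order. The change of Clvs1 was 1.81 after saline and -0.05 after repeated cocaine, that of Ntrk2 1.68 after saline and 0.30 after repeated cocaine, and that of Pde4b 1.67 after saline and -0.14 after repeated cocaine. The difference itself, (D1_SC minus D1_SS) minus (D1_CC minus D1_CS), passed in edgeR for 0 genes (0% of 37721), with 6936 at an unadjusted p under 0.05, whereas DESeq2 called 2852. For Ntrk2 it was 1.38 ± 0.40 (edgeR, adjusted p = 0.0595), for Pde4b 1.81 ± 0.44 (adjusted p = 0.0527), and for Junb -1.96 ± 0.83 (adjusted p = 0.184). Quality differs in these groups as well, where 3 of 10 D1_CC and 2 of 8 D1_CS libraries failed the rule.

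In D2 nuclei the same first challenge gave no call in edgeR. Of 36090 genes 0 passed in D2_SC against D2_SS, with 1914 at an unadjusted p under 0.05. Nr4a3 had a change of 0.62 ± 0.27 there (adjusted p = 0.939), Fosl2 0.69 ± 0.28 (adjusted p = 0.923) and Ntrk2 0.64 ± 0.33 (adjusted p = 0.969). The median of rapid immediate early genes lay 0.54 above that of all genes in D1 and 0.23 above it in D2. The difference between the lines passed for 11 of 39250 genes (0.028%; DESeq2 called 0), all of them higher in the D1 difference, and each was dominated by 1 shallow library: 8 peaked in D1_SC 5 and 3 in D1_SC 1. For Nr4a3 the difference was 0.91 ± 0.47 (adjusted p = 0.967) and for Nr4a1 1.23 ± 0.56 (adjusted p = 0.889), so the calls in D1 and their absence in D2 do not show that the lines differ.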

How the data were processed

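Nuclear RNA libraries were made from sorted accumbens nuclei with a stranded total RNA kit for small inputs, per the labels' protocols. The deposited table of read counts per gene holds 75 libraries; the authors used featureCounts and DESeq2 with the mm10 genome, per the submitters' processing notes, while for the aligner, the gene annotation and the strand setting nothing is stated in these sources. The authors also deposited an FPKM table; the lengths it implies beside the counts are whole gene spans, introns included (54271 of 54271 lengths compared, within 0.5 bases), and no test used it.

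Genes with low counts were removed (filterByExpr), libraries were scaled by TMM, and the 37 D1 libraries in their 4 groups were fitted together with edgeR's quasi-likelihood test (edgeR 4.0.16, R 4.3.3), adjusted by Benjamini-Hochberg over all 37721 genes tested, with calls at an adjusted p under 0.05. All gene-wise p-values in the text are from that test unless another is named. SE is the log2 change divided by the square root of its F. The background density of a library is its reads per base over 1435 silent receptor genes. A library failed where its depth was under the line's median divided by 3, where the genes with 10 or more counts or the median Spearman correlation lay over 4 scaled median absolute deviations below, or where the log2 ratio of Drd1 to Drd2 was nearer to the median of D2 libraries than to that of D1 libraries. DESeq2 1.42.0, limma 3.58.1, other scalings, no filter, fewer groups, the background as subtraction or covariate, the replicate number as a block and each library left out were the alternatives. The scripts were tested on simulated data. The analysis ran on total counts of 651445 to 29845486 per library; counting error is large in the shallowest.

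The genes named were 22 fixed ones, the 10 of smallest p in each direction with at least 5 CPM and 8 of 9 D1_SC libraries on 1 side of the D1_SS median, up to 4 called members per list (or the member of smallest p), and the strongest that also pass with the background subtracted; some of them are not reported here. Nr1d2, Bhlhe41, Calb2, Ccn2, Isg15 and Guca2b are outside this rule and were chosen after their values were seen. Gene lists, genes and measures were chosen with earlier results of these data known. Same-numbered libraries did not deviate together (9 pairs, correlations -0.66 to 0.03), so numbers were not used to pair.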

Additional observations from a re-analysis of the deposited data

Results flagged for a closer look

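In 35 of 202 groups of values (1 gene in the libraries of 1 group), 1 library lay far from the others; chance gives about 1 in 20 groups. D1_SC 7, which holds the second highest Drd1 level of its group, stood apart in Fos (20.2 CPM, next 8.04), Junb (58.0, next 27.8), Arc (75.2, next 35.6) and Slc17a7 (129, next 36.7), and in mt-Co3 (1.40, next 0.63).

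D1_SC 5, the library of 651445 counts, stood apart in Oxr1 (457 CPM, next 304), Dlgap4 (563, next 268), Pclo (1329, next 865), Stx1a (539, next 50.8), Hepacam (669, next 43.0), Mobp (192, next 75.5), Nos1 (476, next 153), Phlpp1 (589, next 364), Daam1 (689, next 191), Nr1d2 (177, next 90.5) and Kcnj13 (44.5, next 6.91). D1_SC 1 did in Mbd6 (130 CPM, next 36.8), Pde4a (157, next 107) and Sox9 (46.4, next 7.85), and D1_SC 9 in Ttr (15.7, next 3.54) and Bhlhe41 (85.1, next 39.0). The D1_SC 1, 5 and 9 values come from libraries that fail the quality rule, and the changes of these genes without them are given with the results, other than Phlpp1 (0.59 without the failing libraries), Daam1 (0.53) and Nos1 (0.057).

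Among the saline libraries D1_SS 10 was high in Clvs1 (266 CPM, next 214), Pde7b (797, next 573) and Sik2 (161, next 126) and low in Stx1a (14.3, next 20.7). D1_SS 8 was high in Mbd6 (13.4 CPM, next 9.38), Pxk (67.2, next 58.8), Mobp (36.9, next 26.1), Hsf1 (28.9, next 24.3) and Grik3 (283, next 191). D1_SS 5 was high in Slc1a2 (223 CPM, next 132), Slc17a7 (33.5, next 13.1) and Neurod2 (3.54, next 2.22), and D1_SS 1 in mt-Co3 (7.90, next 3.63) and Rpl10l (2.12, next 1.22).

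The D1 difference, D1_SC minus D1_SS, differed from the D2 difference in 11 genes by edgeR. They include Isg15, an interferon-induced gene (3.41 ± 0.69, adjusted p = 0.0329), at 30.8 CPM in D1_SC 1 and 5.05 CPM in the next D1_SC library, and Guca2b, a gut hormone gene (5.36 ± 1.12, adjusted p = 0.0369), at 388 CPM in D1_SC 5 and 2.03 CPM in the next.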

How the results depend on the processing

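The count of calls in D1_SC against D1_SS depends on the processing, and the cause was not tested. Beside 3659 higher and 618 lower genes (4277), limma gave 1683 and 1053 (2736), total count scaling 187 and 80 (267), background subtraction 280 and 34 (314, of which 299 are also called with the deposited counts in the same direction), and the background share as a covariate 2 and 0 (2). Without the failing libraries, alone or with background subtraction (a combination chosen after seeing the data), 0 and 0 passed (0). DESeq2 called 3369 and 2282 and the fit of D1_SC and D1_SS alone 3219 and 216; RLE scaling (3068 in all) and no filter (3956) stayed within 1.5 times. With the replicate number as a block 1711 and 169 passed (1880); the numbers did not pair the libraries, and 0 of 9 pairs correlated best with their own number. Leaving out 1 library gave 459 to 10348 calls, 420 to 5553 higher and 39 to 4795 lower, with 459 without D1_SC 2, 511 without D1_SC 4, 777 without D1_SC 9, 1505 without D1_SS 3, 1563 without D1_SC 5, 7435 without D1_SC 7 and 10348 without D1_SC 6. The background share differed by -15.1 points without the failing libraries and by -27.2 to -20.5 points, and the long-gene share by 3.96 to 6.33 points, with 1 library left out.

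Of 99 reported genes, 84 were called, 29 of them in all 19 fits with 1 library left out and 34 with the background subtracted. The signs of a few reversed. With the background share as a covariate Junb was at -0.051, Egr1 -0.029, Npas4 -0.33 and Dusp1 -0.034. Npas4 was at -0.054 with DESeq2, -0.063 with RLE, -0.32 with total counts and -0.32 with background subtraction, and Dusp1 at -0.076, -0.077 and -0.36 with DESeq2, RLE and total counts and at -0.0039 with the block. Drd1 was at 0.44 with limma and 0.028 with the block, Hepacam at -0.016 with limma, and Nos1 at -0.16 with DESeq2, -0.036 with limma and -0.0083 with both steps. Rdh16f1 was at 0.31 with background subtraction and 0.55 with both steps. With 1 library left out Junb lay at -0.13 to 0.58, Npas4 at -0.055 to 0.21, Dusp1 at -0.12 to 0.12 and Nos1 at -0.14 to 0.97. The history comparison gave 0 calls by edgeR and 2852 by DESeq2, and the comparison of the lines 11 by edgeR and 0 by DESeq2, without the failing libraries, with background subtraction or with the block. D1_SC 5, with 6701 genes at 10 or more counts, limits the precision of every low gene.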
